A study of Mus musculus with 90 samples.

Results

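Cytosolic sulfotransferases are the enzymes that attach a sulfonate group to small molecules, and 9 mouse genes of this family, *Sult1a1*, *Sult1b1*, *Sult1c2*, *Sult1d1*, *Sult1e1*, *Sult2a1*, *Sult2a8*, *Sult3a1* and *Sult5a1*, were followed in liver RNA-seq. They were chosen by name, as 9 of the 27654 genes in the deposited tables, and all 9 names were found there. The tables hold 12 other genes of the family, some of which are described beside the 9. A sulfotransferase takes the sulfonate from PAPS, the activated form of sulfate, and passes it to a hydroxyl or amine group of a hormone, bile acid, catecholamine or drug. The product is more soluble in water, usually no longer binds the receptor of the parent hormone, and leaves the body in bile or urine unless a sulfatase removes the group again. The SULT1 enzymes mostly take phenols, among them estrogens, thyroid hormones and catecholamines, while the SULT2 enzymes take the hydroxyl groups of steroids and bile acids.

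PolyA RNA of whole mouse liver was measured in 90 libraries, each from 1 animal, in 3 experiments. All mice were C57BL/6J, and the labels give no age. The study's methods describe males of 12 weeks at the start of its protocols, so the livers came from older mice. In a time series, livers were taken every 4 h at 6 zeitgeber times (ZT, hours after lights on) from WT and GR LKO mice, fed a control diet or 40% fewer calories. There the WT mice carried GRfl/fl, a floxed gene of the glucocorticoid receptor (GR, *Nr3c1*) without Cre, and GR LKO mice carried GRfl/fl x Alb-Cre, in which the albumin promoter drives Cre recombinase in hepatocytes. The caloric restriction series held 36 livers, 3 of each genotype at each time. Of the 42 livers on control diet, 22 were WT and 20 GR LKO, with 4 of each genotype at ZT8 and ZT12, 4 WT and 3 GR LKO at ZT16 and ZT20, and 3 of each at ZT0 and ZT4. A separate diet experiment compared 3 calorically restricted with 3 control mice at ZT12, the time at which food was given, and a corticosterone experiment compared 3 mice given daily injections of corticosterone (CORT) over the last week with 3 control mice, also at ZT12. The mice of the last 2 experiments are labelled WT, with no allele given. The control diet carries the label of night-restricted feeding, which followed feeding ad libitum in the last week, and the titles of the 3 controls of the diet experiment carry letters for ad libitum feeding. The controls of the corticosterone experiment carry the night-restricted label too, and their titles name no injection. The study's methods describe vehicle injections beside corticosterone, so whether these 3 controls were injected is not clear from the titles. If they were not, hormone and injection cannot be told apart.

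Total counts per library ran from 10057544 to 17089004 in the control diet series (median 13427104) and from 14235473 to 20788575 in the caloric restriction series (median 17386700). The diet experiment was the deepest, with 36442195 to 39492146 counts, and the corticosterone experiment held 13739631 to 16077943. Levels are given in CPM, the estimated count of a gene relative to the total of its library after TMM scaling within each of these 4 sets of libraries. The diets of the time series were deposited as separate sets of libraries, so diet and set cannot be told apart there, and diets were compared in the diet experiment except where the text names the time series. A gene was called higher or lower when its Benjamini-Hochberg adjusted p over all genes tested was under 0.05 in edgeR. Changes are log2 fold changes with their standard error.

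The deletion was visible in *Nr3c1* itself at every time. On control diet at ZT12 it ranged from 76.1 to 89.0 CPM in the 4 WT livers against 18.9 to 25.1 CPM in the 4 GR LKO livers. With restricted calories at ZT12 the 3 WT livers lay between 98.01 and 103 CPM and the 3 GR LKO livers between 30.6 and 32.1 CPM. Over all times, the lowest WT liver had 70.1 CPM and the highest GR LKO liver 32.1 CPM, so the genotypes did not overlap. The fitted change over the day was -1.84 ± 0.04 on caloric restriction and -1.96 ± 0.05 on control diet. Hepatocyte markers (6 of 6 genes present, *Alb* the most abundant) summed to 65492 CPM or more in every library of the time series. Exocrine pancreas markers (5 genes, *Cela2a* the most abundant) summed to 593 CPM in WT replicate 3 on caloric restriction at ZT12 and to 307 CPM in WT replicate 2 on control diet at ZT16, and the next library had 1.75 CPM. Leaving these 2 libraries out, the members called over the day stayed at 5 on each diet.

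The levels of the members spanned several orders of magnitude. Per kilobase of exon, *Sult2a8* was the most abundant in WT livers on control diet, at a mean of 241 CPM per kb, followed by *Sult1a1* at 170.1 and *Sult1d1* at 41.5 CPM per kb. *Sult1b1* followed with 10.4, *Sult5a1* with 4.34 and *Sult1c2* with 2.39 CPM per kb. The last 3 were close to absent, *Sult1e1* at 0.123, *Sult2a1* at 0.00634 and *Sult3a1* at 0.0059 CPM per kb. In WT livers of the time series on caloric restriction the order at the top was another, *Sult1a1* standing at 340.2, *Sult2a8* at 131.9 and *Sult1d1* at 89.2 CPM per kb. In GR LKO livers on caloric restriction these 3 stood at 251, 132 and 39.1 CPM per kb. In the controls of the diet experiment *Sult2a8*, *Sult1a1*, *Sult1d1* and *Sult1b1* came in the same order as in WT livers on control diet, at 240.5, 149, 45.0 and 10.2 CPM per kb. Its restricted livers, taken at ZT12 alone and not over the day, gave *Sult1a1* at 359, *Sult1d1* at 200.9 and *Sult2a8* at 29.2 CPM per kb. In its controls *Sult1c2* (3.89 CPM per kb) and *Sult5a1* (2.05 CPM per kb) changed places, so these neighbours in the order are not separated. In the controls of the corticosterone experiment *Sult2a8* (176 CPM per kb) and *Sult1a1* (155 CPM per kb) lay closer together.

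The diet experiment asks how WT livers change at ZT12 when calories are restricted. Of the 9 members, 7 passed the filter on low counts, and 3 were called higher and 3 lower, against 47.1% of all genes tested. *Sult1e1*, the estrogen sulfotransferase, gave 0.125, 0.314 and 0.0527 CPM in the 3 controls and 9.02, 6.70 and 5.05 CPM in the 3 restricted livers. It was near 0 in each control and clearly present in each restricted liver, with no overlap. The groups held 19 and 761 estimated counts, a ratio of 42.1 with a 95% interval of 26.8 to 70.3 that covers counting error alone. In bulk liver, fewer cells of a type and less RNA per cell cannot be told apart. The edgeR change was 5.37 ± 0.47 (adjusted p = 0.000307), and 6.22 without control replicate 2, the control with most counts. Between the WT ZT12 livers of the time series the change was 3.77. *Sult1d1*, an enzyme for catecholamines and other phenols, gave 89.5, 128 and 115 CPM in controls and 510.5, 519 and 452 CPM on caloric restriction. The restricted livers lay close together, all far above the highest control, and the change was 2.16 ± 0.14 in edgeR (adjusted p = 0.000129). *Sult1a1*, the main phenol sulfotransferase of the liver, moved the same way, from 175, 259.6 and 240.3 CPM to 632, 506 and 485 CPM. Its groups did not overlap either, and edgeR gave 1.27 ± 0.17 (adjusted p = 0.00132).

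Other members of the SULT1 branch differed. *Sult1c2* gave 6.62, 8.20 and 6.74 CPM in controls and 5.50, 5.38 and 3.99 CPM in restricted livers. Each restricted liver was below each control, but the edgeR change was small, at -0.54 ± 0.16 (adjusted p = 0.0304). With 1 library left out at a time the change ran from -0.61 to -0.39 and the adjusted p from 0.0312 to 0.106, and the call was lost without control replicate 1, 2 or 3 or restricted replicate 2 or 3. In the WT ZT12 libraries of the time series, *Sult1c2* was higher on caloric restriction by 0.32 (adjusted p = 0.386, over a range of 0.0151 to 0.386 for the 6 alternatives). *Sult1b1*, which takes thyroid hormones, gave 25.2, 36.4 and 23.9 CPM in controls and 29.6, 21.7 and 14.95 CPM in restricted livers, with overlap, and was not called (-0.37 ± 0.26, adjusted p = 0.281). It too was higher on caloric restriction in the WT ZT12 libraries of the time series, by 0.38, without a call.

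*Sult2a8*, a bile acid sulfotransferase of mouse liver, showed the largest fall. The controls stood at 829.6, 764 and 776 CPM, the restricted livers at 201.1, 44.3 and 41.9 CPM. No restricted liver came near a control, but restricted replicate 1 kept several times the level of the other two. The edgeR change was -3.04 ± 0.62 (adjusted p = 0.00649), and -4.19 without restricted replicate 1. Between the WT ZT12 livers of the time series the difference was smaller, at -1.11. *Sult5a1*, a member whose substrates are little known, gave 7.72, 7.84 and 11.6 CPM in controls and 2.37, 2.66 and 2.38 CPM in restricted livers. The restricted livers were nearly equal and lay below the lowest control (-1.88 ± 0.19, adjusted p = 0.000501). *Sult2a1* and *Sult3a1* did not pass the filter, with 1 estimated count each in the 3 controls and 4 and 0 counts in the restricted livers.

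**Figure D1:**
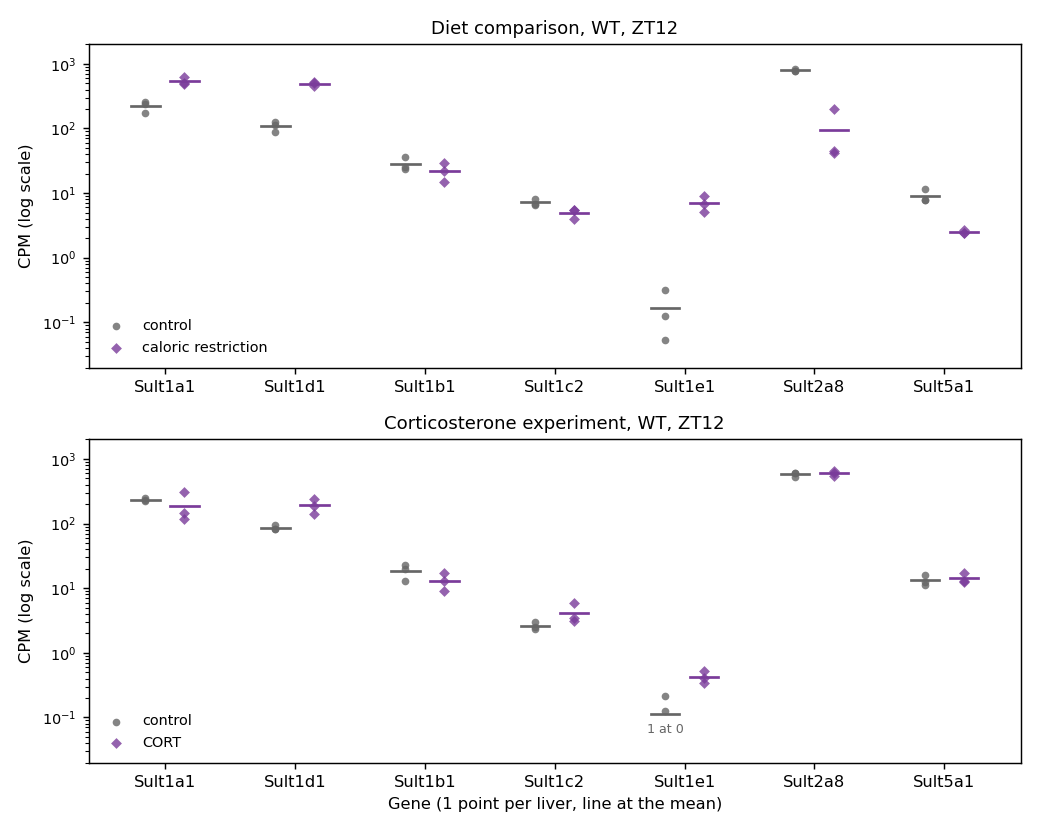
CPM of the members in the diet and corticosterone experiments at ZT12, 1 point per liver and 3 livers per group. *Sult1e1*, *Sult1d1* and *Sult1a1* lie higher and *Sult2a8* and *Sult5a1* lower in restricted livers, and *Sult1d1* lies higher in CORT livers.

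Of 13 tested genes for sulfate and PAPS supply, 1 was higher and 4 lower on caloric restriction, beside the 47.1% called of all genes, with a median of -0.24 beside 0.00. The summed mean of this list was 2594 CPM in restricted and 1854 CPM in control livers. The higher gene was *Cdo1*, cysteine dioxygenase at the start of the route from cysteine to sulfate (0.98 ± 0.08, adjusted p = 0.000225, edgeR). The 4 lower ones were *Slc26a1*, a sulfate carrier (-1.14), *Tst* (-0.94), *Suox*, sulfite oxidase (-0.75), and *Ethe1* (-0.60). Of 6 tested desulfation genes 1 was higher and 4 lower (median -0.36), with *Arsa*, arylsulfatase A, at -2.07 and *Ids* at 0.75. Glucuronidation is the parallel route of conjugation, and of 15 tested UDP-glucuronosyltransferases 3 were higher and 7 lower (median -0.12), among them *Ugt2b38* at -3.85, *Ugt2b35* at -2.06 and *Ugt2b1* at -1.88. Of 10 genes of steroid, thyroid and catecholamine metabolism 5 were higher and 5 lower (median -0.28), led by *Dio1*, the thyroxine deiodinase, at -2.60 and *Srd5a1* at -2.04. Bile acid genes split into 4 higher and 3 lower of 11 (median 0.14), with *Cyp7b1* at -2.97, *Cyp8b1* at -2.10 and *Cyp7a1* at -1.23. Among 18 regulators 8 were higher and 4 lower (median 0.29), led by *Cux2* at 5.26, *Bcl6* at -1.26 and *Esr1* at 1.26. The lists share some genes, here and in the comparisons below, so their counts are not separate results. *Cux2* is also listed as female-predominant, *Ugt2b38* and *Cyp7b1* also as male-predominant, and *Hnf4a* as a regulator and a hepatocyte marker. Genes known for sex-biased levels in mouse liver separated fully. All 8 tested female-predominant genes were higher (median 6.15), and all 10 male-predominant genes were lower (median -4.24), with *Cyp4a12a* at -7.92. Hepatocyte markers (3 of 6 higher, 1 lower) summed to a mean of 155176 CPM in restricted and 91558 CPM in control livers, endothelial markers (4 of 5 higher, *Clec4g* the most abundant) to 186 and 125 CPM, and erythrocyte markers (1 of 5 lower, *Hbb-bs* the most abundant) to 382 and 732 CPM. In each of these lists no marker was at 0 in all 6 libraries, and their part in the changes of the members was not tested.

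Corticosterone injections raise the hormone that GR binds, without restricting calories. Of the 9 members 6 passed the filter, and 1 was called higher and none lower, against 8.11% of all genes. *Sult1d1* gave 95.2, 81.8 and 82.7 CPM in controls and 189, 239 and 142 CPM in CORT livers. Each CORT liver stood above each control, with a wide spread among the CORT livers. The edgeR change was 1.14 ± 0.19 (adjusted p = 0.0158). Leaving out 1 library at a time gave changes of 0.93 to 1.31 and adjusted p of 0.00944 to 0.0784, and the call was lost without control replicate 2 or control replicate 3. *Sult1a1* stood at 247, 225 and 229 CPM in controls and at 147, 304 and 119 CPM in CORT livers. CORT replicate 2 was above the controls and the other two CORT livers below them, and *Sult1a1* was not called (-0.30, adjusted p = 0.62). Without CORT replicate 2 it was called lower, at -0.81 (adjusted p = 0.0129).

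*Sult1e1* was below the filter in this experiment, with 0.215, 0.124 and 0 CPM in controls and 0.530, 0.403 and 0.340 CPM in CORT livers. Every CORT liver exceeded every control at these low levels, on 18 against 5 estimated counts (ratio 3.73, counting interval 1.34 to 12.9). *Sult2a8*, which fell on caloric restriction, gave 612, 596 and 529 CPM in controls and 656, 553 and 600.4 CPM with CORT. The groups overlapped, and edgeR gave 0.06 (adjusted p = 0.784). *Sult5a1* overlapped as well, at 12.6, 11.2 and 15.8 CPM against 17.4, 13.0 and 12.4 CPM (0.11, adjusted p = 0.766). *Sult1c2* (2.34 to 3.01 CPM in controls, 3.11 to 5.80 CPM with CORT) and *Sult1b1* (12.7 to 23.1 and 9.19 to 16.9 CPM) were not called, with adjusted p of 0.212 and 0.298. *Sult2a1* and *Sult3a1* were without counts in this experiment. Whether the changes with CORT differ from those with diet was not tested. In the surrounding lists edgeR called 1 of 13 genes for sulfate and PAPS supply, *Ethe1* at -1.11, and 3 of 17 regulators, with *Hnf4a* at 0.84, *Stat5a* at -0.66 and *Rxra* at 0.51. Of the markers, 1 of 6 for hepatocytes and 1 of 5 for Kupffer and myeloid cells were called higher, and 1 of 5 for endothelial cells, 1 of 5 for stellate cells and 1 of 4 for cholangiocytes lower. Summed over each whole list, in the same order, the levels were 103686, 105, 74.0, 133 and 32.6 CPM with CORT and 104960, 76.3, 92.3, 144 and 33.5 CPM in controls. The most abundant gene of each list, whether called or not, was *Alb*, *Clec4f*, *Clec4g*, *Dcn* and *Spp1*, and 1 of the 5 cholangiocyte markers was at 0 throughout. Erythrocyte markers summed to 396 and 707 CPM, with *Hbb-bs*, the most abundant, not called (-0.93, adjusted p = 0.122). The part of these markers in the members' changes was not tested.

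The time series asks which levels depend on GR in hepatocytes. Fitted over the day with the time point as a covariate, 8 members passed the filter on caloric restriction, and 1 was called higher and 4 lower in GR LKO livers, against 30.0% of all genes. On control diet 6 passed, and again 1 was higher and 4 lower, against 17.6%. *Sult1d1* had a lowest, median and highest level of 109, 167 and 480 CPM in the 18 WT livers on caloric restriction and of 46.7, 96.1 and 158 CPM in the 18 GR LKO livers. On control diet the 22 WT livers ran from 65.7 over 90.8 to 153 CPM and the 20 GR LKO livers from 29.5 over 50.9 to 74.98 CPM, the middle value being the median here and below. Over the whole day the ranges overlap on either diet, but within each of the 6 times, on either diet, every GR LKO liver was below every WT liver. The change was -1.10 ± 0.11 on caloric restriction (adjusted p = 1.87e-09) and -0.92 ± 0.09 on control diet (adjusted p = 3.12e-10, edgeR).

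*Sult1a1* ran from 336 over 488 to 799.9 CPM in WT and from 194 over 385 to 529 CPM in GR LKO livers on caloric restriction. On control diet the WT livers ran from 155 over 265 to 340 CPM and the GR LKO livers from 106 over 156 to 192 CPM. Every GR LKO liver was below every WT liver at 5 of the 6 times on each diet, and the group mean was lower at all 6. The changes were -0.43 ± 0.07 (adjusted p = 7.96e-06) and -0.74 ± 0.06 (adjusted p = 1.32e-11, edgeR). *Sult1e1* on caloric restriction ranged from 0 to 12.8 CPM in WT livers, with a median of 0.865, and from 0 to 0.165 CPM in GR LKO livers, with a median of 0.0269. The WT level was high in some livers only, and 9 GR LKO livers against 1 WT liver had no count at all. Summed over the day there were 633 counts in WT and 14 in GR LKO livers (WT over GR LKO 46.4, counting interval 27.4 to 85.3). The edgeR change was -4.88 ± 0.51 (adjusted p = 6.98e-09), and -4.08 without ZT16. On control diet *Sult1e1* was below the filter, with 45 WT and 6 GR LKO counts (6.85, interval 2.91 to 19.7), and was called lower by DESeq2 (adjusted p = 0.00157) and by edgeR without the filter (0.000646).

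*Sult5a1* fell as well. WT livers on caloric restriction ran from 4.13 over 8.78 to 16.8 CPM and GR LKO livers from 1.96 over 3.52 to 8.38 CPM, and on control diet the ranges were 9.36 over 18.8 to 39.9 and 5.31 over 9.37 to 25.7 CPM. At 5 of 6 times on caloric restriction and 4 of 6 on control diet the genotypes did not overlap, and edgeR gave -1.182 ± 0.15 (adjusted p = 3.76e-07) and -0.84 ± 0.16 (adjusted p = 0.000178). *Sult1c2* moved the other way. On caloric restriction it ran from 2.29 over 6.20 to 15.01 CPM in WT and from 4.30 over 10.4 to 19.1 CPM in GR LKO livers, and from 2.23 over 3.98 to 7.69 and from 2.53 over 5.35 to 9.22 CPM on control diet. Its mean was higher in GR LKO livers at all 6 times on both diets, although the genotypes separated fully at 2 and 1 of the 6 times. The edgeR changes were 0.72 ± 0.14 (adjusted p = 0.000197) and 0.36 ± 0.08 (adjusted p = 0.00198).

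*Sult1b1* overlapped widely between the genotypes on caloric restriction, at 23.8 over 30.6 to 46.8 CPM in WT and 23.5 over 29.5 to 45.1 CPM in GR LKO livers (-0.06, adjusted p = 0.688). On control diet it was called lower (15.8 over 29.0 to 38.7 against 12.8 over 23.3 to 36.5 CPM; -0.28 ± 0.09, adjusted p = 0.0342). That call was lost without ZT8, ZT12, ZT16 or ZT20 and with library totals alone, the adjusted p running from 0.0266 to 0.109 over 12 alternatives. *Sult2a8* was not called over the day, at 148 over 392 to 763 CPM and 258 over 399 to 836 CPM on caloric restriction (0.11 ± 0.17, adjusted p = 0.686). On control diet it stood at 332 over 796 to 1002 and 300.1 over 856 to 1158 CPM (0.09 ± 0.09, adjusted p = 0.599). *Sult3a1* was tested on caloric restriction alone and not called (-0.87 ± 0.73, adjusted p = 0.399).

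**Figure D2:**
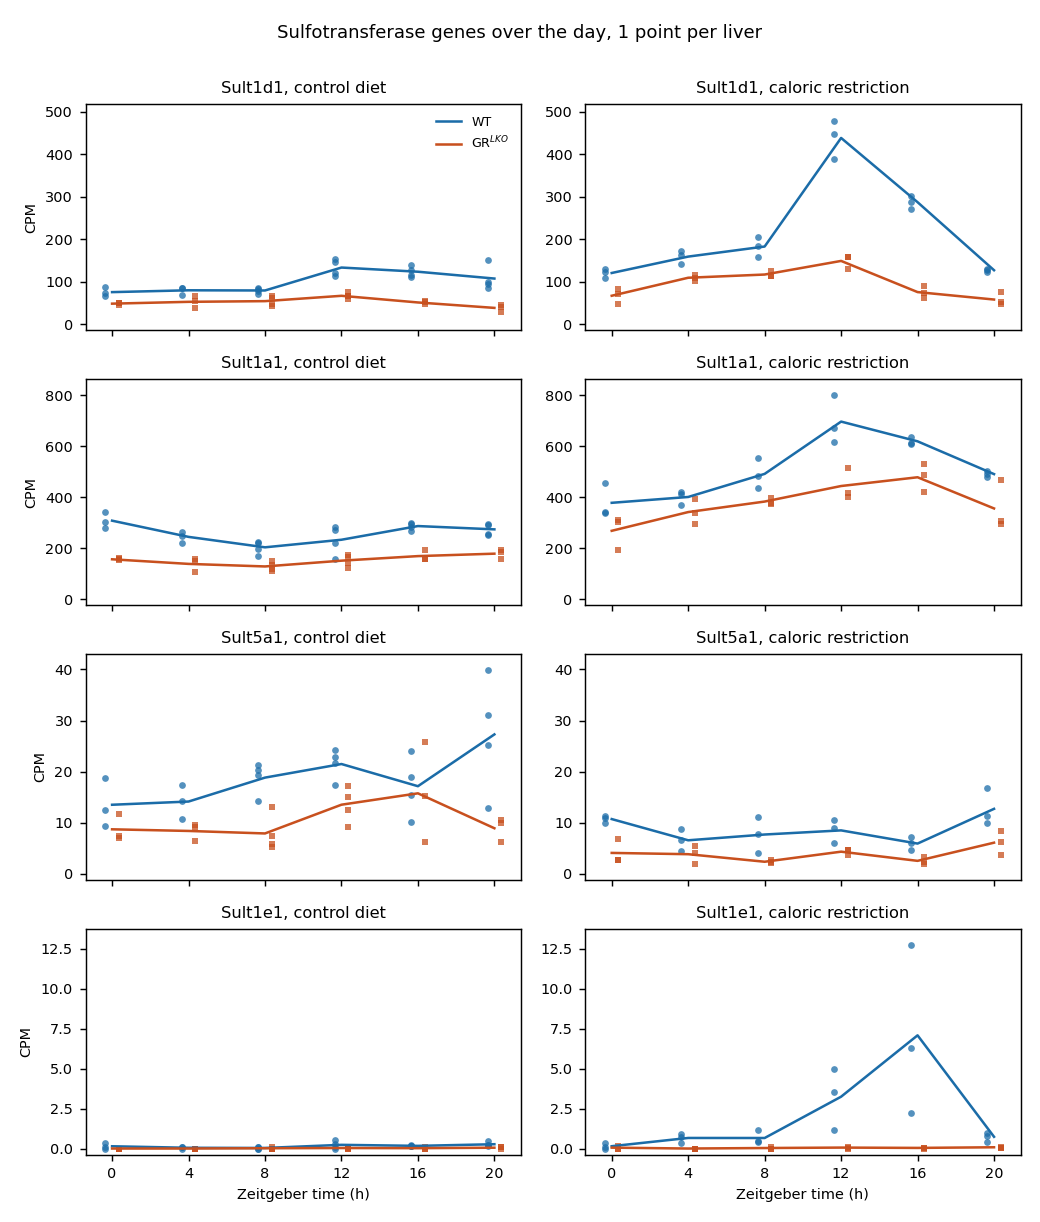
CPM of the members with lower levels in GR LKO livers against zeitgeber time, control diet on the left and caloric restriction on the right, 1 point per liver and lines through the group means. *Sult1d1* in WT livers on caloric restriction reached a mean of 439 CPM at ZT12, against 149 CPM in GR LKO livers.

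Tested at each time, ZT12 on caloric restriction held more edgeR calls than any other time, while DESeq2 called 5 members at ZT12 and 5 at ZT16. At ZT12 edgeR called 1 higher and 4 lower of 7 tested members, against 15.3% of all genes. *Sult1d1* gave 447, 389.6 and 479.6 CPM in WT and 158, 131 and 158 CPM in GR LKO livers. Every WT liver had more than double the level of the highest GR LKO liver, and edgeR gave -1.56 ± 0.12 (adjusted p = 0.000528). *Sult1e1* gave 4.99, 1.19 and 3.56 CPM in WT and 0.115, 0 and 0.0611 CPM in GR LKO livers. The GR LKO livers held 3 counts against 151 in WT livers (55.9, counting interval 18.8 to 274), and edgeR gave -5.63 ± 0.83 (adjusted p = 0.00589) and -6.45 without GR LKO replicate 1. *Sult1a1* gave 618, 673 and 799.9 CPM in WT and 417, 516 and 399 CPM in GR LKO livers, without overlap (-0.66 ± 0.14, adjusted p = 0.0197). Its call was lost without WT replicate 3, GR LKO replicate 1 or GR LKO replicate 3, with adjusted p of 0.0226 to 0.0728 over the 6 left-out libraries. *Sult5a1* gave 6.10, 8.88 and 10.5 CPM and 4.58, 4.67 and 3.73 CPM (-0.97 ± 0.23, adjusted p = 0.0294), and *Sult1c2* gave 4.64, 9.06 and 8.59 CPM and 19.1, 12.0 and 15.3 CPM (1.05 ± 0.27, adjusted p = 0.0415). Neither pair of groups overlapped. The *Sult5a1* call was lost without WT replicate 2 or 3 or any of the 3 GR LKO libraries (adjusted p 0.0139 to 0.0989), and the *Sult1c2* call without any of the 6 libraries (adjusted p 0.0524 to 0.125). Without GR LKO replicate 2, *Sult1b1* was called lower at -0.65 (adjusted p = 0.0235), and without WT replicate 2, *Sult3a1* at -3.81 (adjusted p = 0.042). WT replicate 3 is the library with pancreas transcripts. At this time 5 of 6 hepatocyte markers were lower in GR LKO livers (*Alb* the most abundant, sums of 117606 against 165395 CPM) and 4 of 5 Kupffer and myeloid cell markers higher (*Clec4f* the most abundant, 108 against 51.2 CPM, median 1.10). No marker of the 2 lists was at 0 throughout, and their part in the members' changes was not tested.

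At ZT16 on caloric restriction 1 member was higher and 2 lower of 7 tested, against 4.54%. *Sult1d1* gave 301, 272 and 289 CPM in WT and 62.4, 74.2 and 90.6 CPM in GR LKO livers. As a log2 change this was the largest of the 6 times for this gene on caloric restriction (-1.92 ± 0.14, adjusted p = 0.000697), while the gap between the mean CPM was wider at ZT12. *Sult1e1* gave 12.8, 6.27 and 2.24 CPM in WT and 0.0579, 0.0592 and 0 CPM in GR LKO livers. The WT livers spread widely but lay far above the GR LKO livers, which held 2 counts against 364 (183, counting interval 50.4 to 1519). The edgeR change was -7.22 ± 0.96 (adjusted p = 0.00755), and -6.47 without WT replicate 1. *Sult2a8* was higher here, at 157, 153 and 166 CPM in WT and 258, 384 and 322 CPM in GR LKO livers. The WT livers were tightly grouped at their lowest mean of the day and did not reach the lowest GR LKO liver (1.02 ± 0.14, adjusted p = 0.00921). The call was lost with a spread shared over times (adjusted p = 0.102, over a range of 6.51e-11 to 0.102 for 6 alternatives). Without GR LKO replicate 2, *Sult5a1* was called at -1.48 (adjusted p = 0.045).

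Around these times, fewer members were called on caloric restriction. ZT8 had 1 lower of 7 tested, against 2.55%, and ZT20 had 1 lower of 6, against 1.47%. Both were *Sult1d1*, with 184, 205 and 159 CPM in WT and 113, 125 and 113 CPM in GR LKO livers at ZT8 (-0.64 ± 0.11, adjusted p = 0.0286). At ZT20 it gave 128, 124 and 129.7 CPM and 46.7, 75.6 and 52.3 CPM (-1.12 ± 0.17, adjusted p = 0.0304). Neither pair overlapped. The ZT8 call was lost without WT replicate 1 or any of the 3 GR LKO libraries (adjusted p 0.0292 to 0.138), and the ZT20 call without any of the 3 WT libraries or GR LKO replicate 3 (adjusted p 0.00432 to 0.129). At ZT0 edgeR called 0 of 6 members, against 0.502%, with 5 at an unadjusted p under 0.05 and 2 called by DESeq2. At ZT4 it called 0 of 6, against 0.690%, with 2 at an unadjusted p under 0.05 and 2 called by DESeq2. *Sult1e1* at ZT4 gave 0.920, 0.712 and 0.353 CPM in WT livers and no count in any GR LKO liver. On 36 counts against 0 it was at least 12.2-fold lower against a floor of 3 counts over the group, and the counting interval began lower, at 9.42. *Sult2a8* at ZT4 gave 171, 196 and 721 CPM in WT and 413, 331 and 358 CPM in GR LKO livers. WT replicate 3 alone lay above the GR LKO livers, and without it *Sult2a8* was called higher at 1.01 (adjusted p = 0.0315) and *Sult1d1* lower at -0.61 (adjusted p = 0.0465). Further calls appeared for *Sult5a1* without GR LKO replicate 1 at ZT0 (-1.97, adjusted p = 0.00954) and without WT replicate 2 at ZT8 (-1.999, adjusted p = 0.00892), and for *Sult1a1* without GR LKO replicate 2 at ZT20 (-0.69, adjusted p = 0.0311).

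On control diet the edgeR calls at single times concerned *Sult1a1* and *Sult1d1*. At ZT0, 1 of 6 tested members was lower, against 0.536%. This was *Sult1a1*, with 302, 340.3 and 281 CPM in WT and 153, 159 and 156 CPM in GR LKO livers. The GR LKO livers were nearly equal, all far below the lowest WT liver (-0.99 ± 0.10, adjusted p = 0.0268). The call was lost without WT replicate 1 or 2 or any GR LKO library (adjusted p 0.0166 to 0.124). At ZT8, 1 of 6 was lower, against 1.43%, again *Sult1a1* at 221, 224, 198 and 169 CPM in WT and 117, 109.8, 150.1 and 135 CPM in GR LKO livers. The groups did not overlap (-0.67 ± 0.12, adjusted p = 0.0261), but the call was lost without WT replicate 1, 2 or 3 or GR LKO replicate 1, 2 or 4 (adjusted p 0.0161 to 0.0897). At ZT12, 1 of 6 was lower, against 2.08%, this time *Sult1d1* at 121, 147, 113 and 153 CPM in WT and 74.98, 60.3, 66.5 and 66.3 CPM in GR LKO livers. Each GR LKO liver lay well below the lowest WT liver (-0.99 ± 0.12, adjusted p = 0.00302). At ZT16, 2 of 6 were lower, against 1.98%.

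Those 2 were *Sult1d1*, with 139, 117, 129 and 111 CPM in WT and 47.1, 55.3 and 51.7 CPM in GR LKO livers, and *Sult1a1*, with 299.6, 268, 284 and 294 CPM and 158, 156 and 192 CPM. In both the groups were far apart, at -1.27 ± 0.10 (adjusted p = 0.00238) and -0.77 ± 0.09 (adjusted p = 0.00849). *Sult2a8* was higher at this time without overlap, at 741, 707, 669 and 629 CPM in WT and 833, 906 and 927 CPM in GR LKO livers. EdgeR did not call it (0.37 ± 0.08, adjusted p = 0.0587), while DESeq2 (adjusted p = 0.000153) and edgeR with library totals alone (0.0499) did. At ZT4 edgeR called 0 of 6 members, against 0.195%, with 3 at an unadjusted p under 0.05 and 1 called by DESeq2. At ZT20 it called 0 of 6, against 0.420%, with 3 at an unadjusted p under 0.05 and 3 called by DESeq2. *Sult1d1* nevertheless did not overlap at ZT20, with 151, 98.9, 93.7 and 86.5 CPM in WT and 29.5, 46.0 and 40.2 CPM in GR LKO livers. *Sult5a1* at ZT20 gave 31.0, 39.9, 13.0 and 25.3 CPM and 6.27, 9.88 and 10.6 CPM. WT replicate 3 was the lowest of the WT livers there, and without it *Sult5a1* was called at -1.86 (adjusted p = 0.0497). Single libraries also decided *Sult1d1* at ZT0 (-0.74 without WT replicate 3, adjusted p = 0.045), *Sult5a1* at ZT8 (-1.61 without GR LKO replicate 2, adjusted p = 0.00763) and *Sult1a1* at ZT12 (-0.78 without WT replicate 3, adjusted p = 0.05). Of 117 fitted changes of the members in all comparisons, 0 took another sign with RLE scaling and 6 with library totals alone, where the largest shift was 0.17. These 6 were uncalled changes of at most 0.06 in size, among them *Sult2a8* with CORT and *Sult1b1* over the day on caloric restriction.

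Whether the genotype effect differs between diets was tested as an interaction over all 78 livers of the time series, in which an additive shift between the sets drops out. Of 8 members edgeR called 0, against 1.70% of all genes, with 3 at an unadjusted p under 0.05 and 2 called by DESeq2. The nearest was *Sult1a1*, whose fall in GR LKO livers was smaller on caloric restriction by 0.31 ± 0.09 (adjusted p = 0.0587, edgeR). It was called without ZT12 (0.38, adjusted p = 0.0183) and without the 2 libraries with pancreas transcripts (0.33, adjusted p = 0.0425). DESeq2 (adjusted p = 0.0364) and edgeR with library totals alone (0.0317) called it too. *Sult1e1* gave -2.41 ± 1.03 in edgeR (adjusted p = 0.257) and was called by DESeq2 (-2.56, adjusted p = 0.0383). *Sult1c2* gave 0.36 (adjusted p = 0.286, edgeR). *Sult1d1* (-0.18, adjusted p = 0.612), *Sult5a1* (-0.34, adjusted p = 0.544), *Sult1b1* (0.23, adjusted p = 0.458), *Sult2a8* (0.02, adjusted p = 0.98) and *Sult3a1* (-1.59, adjusted p = 0.731) were farther from a call. At ZT12 alone 0 of 7 members were called by edgeR, against 1.01%, with 1 at an unadjusted p under 0.05 and 1 called by DESeq2. That member was *Sult1d1*, whose fall was larger on caloric restriction, with an interaction of -0.55 ± 0.17 (adjusted p = 0.161, edgeR). Differences between the diets in which single members were called are thus not shown by edgeR to be differences in the genotype effect. For *Sult1a1*, for *Sult1e1* and, at ZT12, for *Sult1d1* this depends on the setting.

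Whether the genotype effect differs between times was tested within each diet. On caloric restriction 1 of 8 members was called, against 5.34% of all genes, and this was *Sult1d1* (adjusted p = 0.000908, edgeR). Its fall in GR LKO livers ran from -0.54 at ZT4 to -1.92 at ZT16. *Sult1e1* (adjusted p = 0.235), *Sult2a8* (0.339), *Sult1b1* (0.367), *Sult3a1* (0.718), *Sult5a1* (0.781), *Sult1a1* (0.787) and *Sult1c2* (0.939) were not called, so calls of these members at some times and not others are not shown to differ between times. On control diet edgeR called 0 of 6 members, against 0.600%, with 1 at an unadjusted p under 0.05 and 1 called by DESeq2, and this was *Sult1d1* again (adjusted p = 0.113).

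Daily rhythms with a period of 24 h were tested group by group with JTK_CYCLE. In WT livers on control diet 4 of 9 members were called rhythmic, against 32.3% of all genes, and in GR LKO livers 3 of 8, against 28.3%. On caloric restriction 4 of 9 were called in WT livers, against 27.9%, and 3 of 9 in GR LKO livers, against 25.7%. *Sult1c2* was called in each of the 4 groups with its peak at ZT8, the mean moving between 2.57 CPM at ZT20 and 6.78 CPM at ZT8 in WT livers on control diet. In the same order of groups its adjusted p was 4.21e-05, 0.00875, 0.043 and 0.000886, and its peak was 2.64, 2.63, 2.68 and 2.75 times its trough. These ratios lay close together. *Sult1a1* was also called in each group, but at different hours. Its fitted peak lay at ZT20 in both genotypes on control diet (adjusted p = 0.0178 and 0.0109) and at ZT12 in both on caloric restriction (adjusted p = 0.00145 and 0.0238), and whether the diets differ was not tested.

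*Sult1d1* had its fitted peak at ZT16 in WT livers on control diet (adjusted p = 0.00494), where the mean moved from 75.7 CPM at ZT0 to 134 CPM at ZT12, a ratio of 1.76. In GR LKO livers on control diet it was not called (adjusted p = 0.0631), although the ratio of peak to trough was alike, at 1.74. A cosinor fit in edgeR (adjusted p = 0.0176) and JTK on the genes past the filter (0.0432) called it there, and JTK on log2 CPM did not (0.0526). On caloric restriction the WT mean moved from 121 CPM at ZT0 to 439 CPM at ZT12, a ratio of 3.63 (adjusted p = 0.000274, peak at ZT12). In GR LKO livers it moved from 58.2 CPM at ZT20 to 149 CPM at ZT12, a ratio of 2.56 (adjusted p = 0.0089, peak at ZT8). *Sult1e1* was called in WT livers on caloric restriction alone (adjusted p = 0.00807, peak at ZT12), where its mean rose from 0.145 CPM at ZT0 to 7.09 CPM at ZT16. In GR LKO livers its adjusted p was 0.929, and the test of genotype by time gave it an adjusted p of 0.235. *Sult2a8* was called in both genotypes on control diet (adjusted p = 0.0178 and 0.0302) and not on caloric restriction (0.276 and 0.0573). With the cosinor fit the call in GR LKO livers on control diet was lost (adjusted p = 0.202) and GR LKO livers on caloric restriction gained one (0.0192), as they did with JTK on the genes past the filter (0.0398), so this contrast of the diets depends on the setting. Its WT mean on caloric restriction still ran from 159 CPM at ZT16 to 686 CPM at ZT0, with a wide spread between livers at ZT4, ZT8 and ZT12. JTK called *Sult1b1*, *Sult5a1*, *Sult2a1* and *Sult3a1* in no group, and the cosinor fit called *Sult5a1* in GR LKO livers on control diet (adjusted p = 0.0484, over a range of 0.0484 to 0.334 for 3 alternatives).

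Most of these rhythm calls were lost when 1 or another replicate number was left out, which leaves fewer livers to test. With 1 replicate number left out at a time, *Sult1c2* kept its call in WT livers on control diet and in restricted GR LKO livers, and *Sult1d1* in restricted WT livers. *Sult1a1* lost its call without replicate 1 or 3 in WT livers on control diet (adjusted p up to 0.212), without 1 or 2 in GR LKO livers on control diet (0.138), without 1 or 3 in WT livers on caloric restriction (0.0606) and without any of the 3 in GR LKO livers (0.163). *Sult1d1* lost it in WT livers on control diet without replicate 1 or 3 (0.0574) and in GR LKO livers on caloric restriction without any of the 3 (0.163). *Sult1c2* lost it in GR LKO livers on control diet without replicate 2 or 3 (0.0911) and in WT livers on caloric restriction without any of the 3 (0.716). *Sult1e1* lost it without any of the 3 (0.124), and *Sult2a8* without any of the 4 in WT (0.142) and GR LKO livers (0.225) on control diet.

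**Figure D3:**
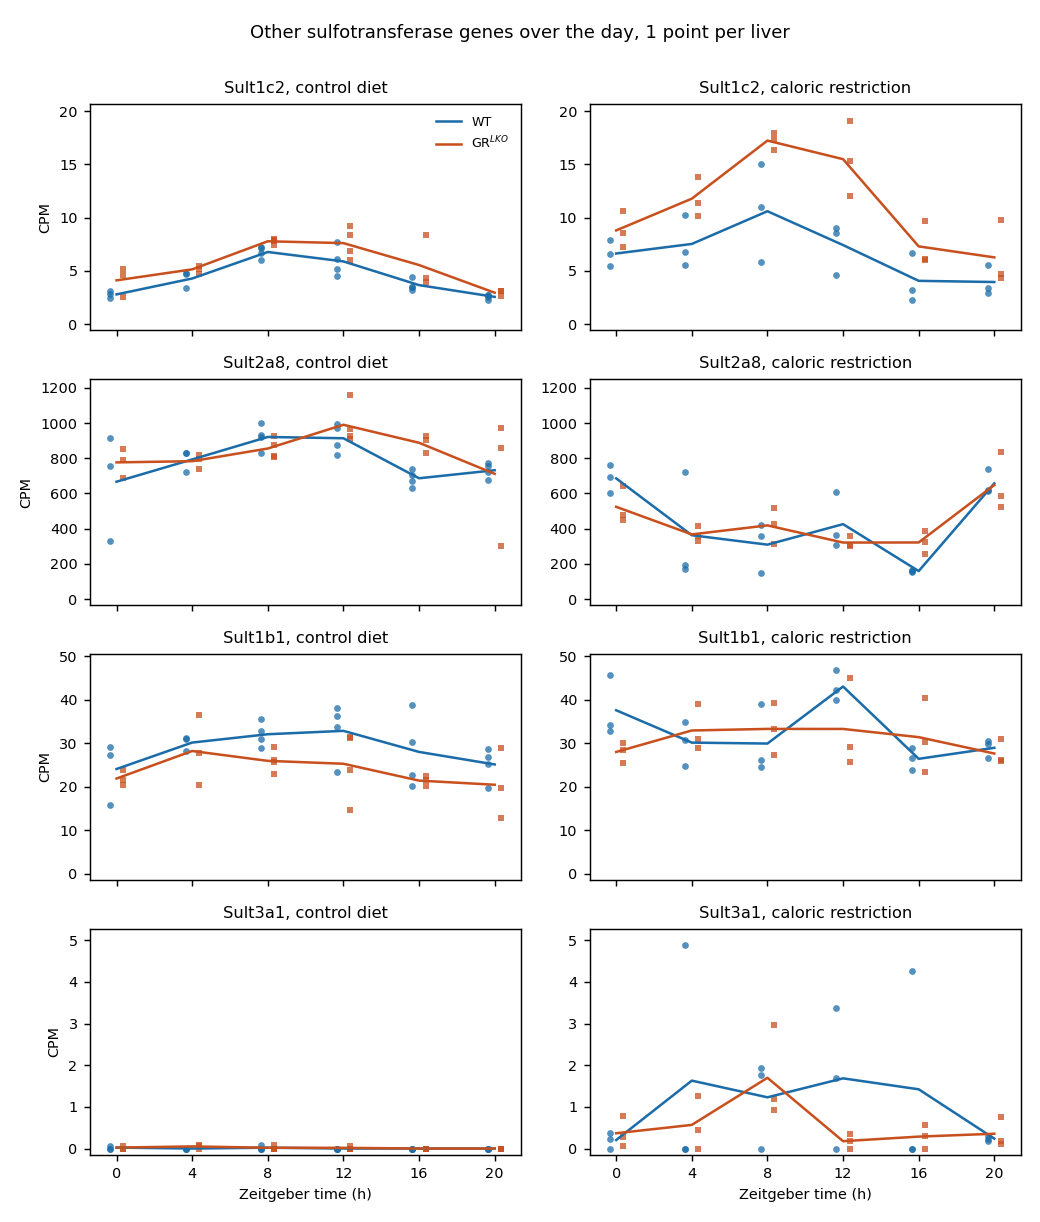
CPM of *Sult1c2*, *Sult2a8*, *Sult1b1* and *Sult3a1* against zeitgeber time, control diet on the left and caloric restriction on the right, 1 point per liver and lines through the group means. *Sult1c2* peaks at ZT8 in each group, and *Sult3a1* is at 0 in most livers on control diet.

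In the time series, where diet and set of libraries cannot be told apart, *Sult2a1* and *Sult3a1* had few counts on control diet and uneven ones on caloric restriction. The diet experiment did not show this, with 1 count each in the controls and 4 and 0 in restricted livers. *Sult2a1*, the enzyme for DHEA and other hydroxysteroids, which is female-predominant in mouse liver, had no count in 21 of 22 WT and 20 of 20 GR LKO livers on control diet. At ZT12 on caloric restriction it gave 0, 0 and 0.0562 CPM in WT and 0.319, 0.410 and 0.559 CPM in GR LKO livers. All 3 GR LKO livers were higher, on 22 counts against 1 (19.8, counting interval 3.20 to 818). Over the day there were 56 counts in GR LKO and 11 in WT livers (4.96, interval 2.57 to 10.5). *Sult2a1* was below the filter of the main test in both cases. It was called higher over the day by DESeq2 (adjusted p = 0.0316) and by edgeR without the filter (0.0154), and at ZT12 by edgeR without the filter (0.0472). *Sult3a1*, an amine sulfotransferase that is also female-predominant, gave 0, 4.89 and 0 CPM in WT livers at ZT4 and 0, 4.27 and 0 CPM at ZT16 on caloric restriction. Single livers carried the signal there, and at ZT12 WT replicates 1 and 3 gave 1.69 and 3.37 CPM while replicate 2 gave 0. In GR LKO livers it was highest at ZT8, with 1.20, 2.98 and 0.925 CPM. The day's sum was 316 counts in WT and 187 in GR LKO livers, with 7 of 18 WT and 3 of 18 GR LKO livers at 0.

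The close relatives of *Sult2a1* had most counts in the same group. On caloric restriction *Sult2a2* held 268 counts in GR LKO and 14 in WT livers, *Sult2a3* 143.9 and 5, and *Sult2a5* 57.3 and 3. The counts were uneven between livers. GR LKO replicate 3 at ZT16 alone held 73.1 of those of *Sult2a2* and 28 of those of *Sult2a3*. Over all 90 libraries *Sult2a2* was above 0 in 35 and *Sult2a3* in 19. Of the 12 other family genes 2 passed the filter over the day on caloric restriction, *Sult2a3* (4.23 ± 0.48, adjusted p = 1.01e-07) and *Sult2a2* (3.72 ± 0.64, adjusted p = 3.47e-05, edgeR), both higher in GR LKO livers and both under 1 CPM on average. On control diet *Sult2a2* held 1 count in GR LKO and 8 in WT livers, and the interaction of genotype and diet was called for it (5.11 ± 1.28, adjusted p = 0.0227). *Sult1c1* and *Sult2a4* had no count in any of the 90 libraries. The *Sult2a* genes, and likewise *Sult3a1* and *Sult3a2*, are similar enough that reads can be split between them by the estimation, so single values among them are uncertain.

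In the lists around the members, the counts by genotype over the day stand beside 30.0% of all genes called on caloric restriction and 17.6% on control diet. Of 13 genes for sulfate and PAPS supply 4 were higher and 3 lower in GR LKO livers on caloric restriction (median 0.01 beside 0.00 over all genes), and 4 higher and 1 lower on control diet (median 0.10). *Papss2*, which makes PAPS, was higher on both, by 0.42 ± 0.08 (adjusted p = 4.96e-05) and 0.46 ± 0.07 (adjusted p = 4.32e-06, edgeR), and *Cdo1* was lower on both, at -0.37 and -0.25. Of 6 desulfation genes 3 were higher and 1 lower on caloric restriction and 2 higher and 1 lower on control diet. Of 15 UDP-glucuronosyltransferases 3 were called on caloric restriction, all higher, with *Ugt3a1* at 0.79, *Ugt2b38* at 0.56 and *Ugt1a1* at 0.34, and 3 were higher and 2 lower on control diet. Female-predominant genes were mostly higher, 6 of 10 with 1 lower on caloric restriction (median 1.52) and 6 of 9 with 1 lower on control diet (median 2.43). Male-predominant genes were mostly lower, 7 of 10 with 2 higher (median -0.78) and 8 of 10 with 1 higher (median -0.51). *Cyp2a4* rose by 3.84 and 5.98 on the 2 diets, and *Mup20* changed by -1.49 and -1.43. Bile acid genes were lower in 6 and higher in 3 of 11 cases on caloric restriction, led by *Abcc4* (from 4.95 CPM in WT to 11.1 CPM in GR LKO livers), *Abcc3* at 0.79 and *Cyp7b1* at -0.63. Of 18 regulators 3 were higher and 3 lower on caloric restriction, and 4 of 10 genes of steroid, thyroid and catecholamine metabolism changed there, led by *Dio1* at 0.38. On control diet 2 of 11 bile acid genes were higher and 3 lower, and of 18 regulators 2 were higher and 3 lower. Of the 10 genes of steroid, thyroid and catecholamine metabolism 1 was higher and 2 were lower there.

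Hepatocyte markers were lower in GR LKO livers, 5 of 6 on each diet. Their summed mean was 108805 against 134164 CPM on caloric restriction (median change -0.34) and 78597 against 95926 CPM on control diet (-0.28), with *Alb* the most abundant and no marker at 0 throughout. Endothelial markers were higher in 3 of 5 cases on caloric restriction, at 185 against 157 CPM. Kupffer and myeloid cell markers (5 genes, *Clec4f* the most abundant) summed over the day to 141 against 122 CPM on caloric restriction (median change 0.29) and to 101 against 105 CPM on control diet (-0.10). *Clec4f* was not called on either (adjusted p = 0.134 and 0.587, edgeR), and 4 of the 5 were higher at ZT12 on caloric restriction, as given above. Adipocyte markers, with *Cfd* the most abundant, summed on control diet to 16.6 CPM without GR, against 0.294 CPM in WT livers, and to 0.946 against 0.0325 CPM on caloric restriction. There 1 of 5 passed the filter and was higher on each diet, and 1 and 2 of the 5 were at 0 in every library of the control and restricted series. The part of these markers in the members' changes was not tested.

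Over the 24 group means of the time series, each diet centred on its own mean, the 3 genes most like each member in pattern were sought by Pearson r among 11420 genes. The genes share the libraries and their depth. Among the 3 for *Sult1d1* were *Gfra1* (r = 0.922) and *Fam234b* (0.915), and *Sult1a1* was most like *Fam234b* (0.839), *Hmgn5* (0.834) and *Fmo5* (0.834). *Sult1c2* followed *Coq8b* (0.947), *Ncaph2* (0.944) and *Coro1b* (0.935), while *Sult5a1* followed *Enho* (0.920), *Gulo* (0.910) and *Cyp7b1* (0.867). *Sult2a8* was most like *Akr1c6* (0.882), *Mup3* (0.861) and *Fggy* (0.836), and *Sult1b1* most like *Rab3gap1* (0.844), *Ube2z* (0.798) and *Tshz1* (0.766). Among the members themselves *Sult1d1* and *Sult1a1* had r = 0.752, *Sult5a1* and *Sult1d1* 0.553, and *Sult1c2* and *Sult1a1* -0.493.

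In the mouse genome (mm10) *Sult1b1*, *Sult1d1* and *Sult1e1* lie side by side on the minus strand at chr5:87513339-87591594, a span of 78256 bases with no other gene in it. *Sult1b1* takes chr5:87513339-87538195, *Sult1d1* chr5:87554645-87569027 and *Sult1e1* chr5:87575969-87591594. In the diet experiment *Sult1d1* and *Sult1e1* were called higher and their neighbour *Sult1b1* was not called. *Sult1a1* lies at chr7:126672865-126676432 and overlaps *Sgf29* on the opposite strand. *Sult2a8* (chr7:14410686-14446769) and *Sult2a1* (chr7:13796246-13837409) share a chromosome with it, all on the minus strand. *Sult1c2* lies at chr17:53829637-53846339 and *Sult5a1* at chr8:123140192-123158315, both on the minus strand, the latter overlapping *Gm20388* on the opposite strand. *Sult3a1* lies on the plus strand at chr10:33857721-33879532. *Sult3a1* overlaps the processed pseudogene *Gm47935* on the opposite strand, and *Sult2a1* overlaps the processed pseudogene *Kat6b-ps2* on the same strand. Whether the counting used the strand of the reads is not given in the sources used here. These overlaps are of whole gene spans, introns included, and shared exons were not looked for. Where exons are shared, reads of the neighbour may be counted with *Sult1a1*, *Sult5a1*, *Sult3a1* or *Sult2a1*.

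The 250 bases upstream of the start of *Sult1a1*, *Sult1d1* and *Sult1e1*, the members that were higher on caloric restriction and lower without GR, are printed here from RefSeq (GRCm38.p6). Windows were at hand for 8 of the 9 members. They were searched on both strands for the half-site of GR (AGAACA), a FoxO motif (TGTTTAC), an E-box (CACGTG) and a STAT motif (TTCNNNGAA). Capitals mark a match. The *Sult1a1* window (chr7:126676419-126676668, minus strand) holds 2 matches to the GR half-site, 1 of them in the reverse orientation, and those of *Sult1d1* (chr5:87569007-87569256, minus strand) and *Sult1e1* (chr5:87591612-87591861, minus strand) hold none of the 4 motifs. Of the other members, *Sult1c2*, which was higher without GR, and 1 of the 2 windows of *Sult1b1* hold 1 GR half-site each, *Sult3a1* holds 1 STAT motif, and those of *Sult2a8* and *Sult5a1* hold none. The half-site occurs in 16.1%, the FoxO motif in 3.17%, the E-box in 6.02% and the STAT motif in 7.02% of 32851 windows of the same length. A match is a run of letters and not a measured binding site.
Sult1a1: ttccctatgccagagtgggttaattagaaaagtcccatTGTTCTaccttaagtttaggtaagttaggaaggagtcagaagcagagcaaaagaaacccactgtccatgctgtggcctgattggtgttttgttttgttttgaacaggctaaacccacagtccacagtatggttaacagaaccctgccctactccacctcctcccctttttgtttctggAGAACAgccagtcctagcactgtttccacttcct
Sult1d1: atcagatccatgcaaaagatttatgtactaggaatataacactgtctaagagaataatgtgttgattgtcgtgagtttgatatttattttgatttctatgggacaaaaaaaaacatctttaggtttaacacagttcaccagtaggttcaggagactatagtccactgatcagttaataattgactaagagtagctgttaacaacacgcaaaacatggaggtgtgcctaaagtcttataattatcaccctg
Sult1e1: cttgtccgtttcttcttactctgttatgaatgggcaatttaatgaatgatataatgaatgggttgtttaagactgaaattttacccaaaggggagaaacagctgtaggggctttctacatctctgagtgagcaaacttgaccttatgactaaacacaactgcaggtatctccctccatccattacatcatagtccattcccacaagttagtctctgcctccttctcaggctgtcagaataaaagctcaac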

How the data were processed

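PolyA RNA of 90 mouse livers was sequenced by the authors, who deposited estimated counts per gene made with Salmon (mm10 is the build named in their notes). The estimated counts, as deposited by the authors, were rounded to whole numbers. Of 27654 gene IDs 27244 matched a symbol, and the other 410 hold 0.107% of counts. A deposited table of transformed values of the 6 libraries of the corticosterone experiment was not used. Genes past filterByExpr (minimum count 10) were tested in R 4.3.3 with edgeR 4.0.16 (TMM, quasi-likelihood F test), each comparison on its own libraries. Rhythms used JTK_CYCLE, written anew, on VST values of DESeq2 1.42.0, and limma 3.58.1 was loaded with edgeR. The code was tested on simulated data. Alternatives were DESeq2, no filter, 2 other scalings, a replicate block, a spread shared over times, leaving out libraries or times, and other rhythm settings. Groups of 3 or 4 livers limit the precision, and counting intervals are exact binomial and cover counting error alone.

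The members and gene lists were chosen with earlier results of these data known. Named genes are the members, any gene of the other sulfotransferases and of sulfate and PAPS supply, of other lists up to 3 called genes with the largest change and at least 5 CPM in 1 group, the most abundant marker, and for each member above 1 CPM up to 3 genes most like it.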

Additional observations from a re-analysis of the deposited data

Results flagged for a closer look

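In groups of 4 livers, a library far from the other 3 was looked for in 46 sets of values with Dixon's ratio of gap to range and its 95% critical value. It was passed 5 times, each with a ratio of 1, where 1 library held 1 or 2 counts and the other 3 none. These were *Sult3a1* in GR LKO livers on control diet at ZT12 (replicate 1, 0.0654 CPM) and ZT8 (replicate 2, 0.0750 CPM), *Sult3a1* in WT livers at ZT8 (replicate 3, 0.0812 CPM), *Sult1e1* in GR LKO livers at ZT8 (replicate 1, 0.0707 CPM) and *Sult2a1* in WT livers at ZT8 (replicate 2, 0.142 CPM). Chance alone marks about 1 in 20 sets of continuous values, a rate that does not apply here, where counts in 1 library alone give a ratio of 1 by construction.

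The genotype effect on *Sult1d1* differed between the times on caloric restriction (edgeR, adjusted p = 0.000908, and 1.16e-08 to 0.00216 over 5 alternatives). WT and GR LKO means were 121 and 67.1 CPM at ZT0, 439 and 149 CPM at ZT12 and 287 and 75.7 CPM at ZT16.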

How the results depend on the processing

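In the diet experiment 5 or 6 members were called under every alternative, against 6 as reported. With the WT ZT12 libraries of the time series 2 members changed direction, *Sult1c2* at 0.32 and *Sult1b1*, not called in either, at 0.38. With corticosterone, leaving out 1 library gave 0 to 2 calls, against 1. Over the 6 times on caloric restriction, DESeq2 gave 19 calls and the replicate block 5, against 10. On control diet DESeq2 gave 15 calls, library totals alone 8, the replicate block 2 and a spread shared over times 11, against 5. With the block, the calls of *Sult1d1* at ZT8 and ZT20 and of *Sult1a1*, *Sult1c2* and *Sult5a1* at ZT12 were lost on caloric restriction, and those of *Sult1a1* at ZT0, ZT8 and ZT16 on control diet. The spread shared over times gave 12 calls on caloric restriction. It ended those of *Sult2a8* at ZT16 (adjusted p = 0.102) and *Sult5a1* at ZT12, and added *Sult1d1* at ZT0 (0.00491), *Sult1e1* at ZT4 (0.0141) and ZT8 (0.0303) and *Sult5a1* at ZT8 (0.00803). Testing without the filter in edgeR ended the call of *Sult1c2* at ZT12 on caloric restriction. There it added *Sult5a1* at ZT8 (adjusted p = 0.0433) and ZT16 (0.0463) and *Sult2a1* at ZT12 (0.0472). On control diet it added *Sult1d1* at ZT20 (0.0443). *Sult5a1* on caloric restriction was also called with RLE scaling at ZT16 (0.0491) and with library totals alone at ZT8 (0.0464). The block takes replicates of equal number as pairs, for which the correlations of 44 pairs of residuals gave no ground (r from -0.156 to 0.180, median -0.00288). For genotype by diet over the day, against 0 calls, DESeq2 gave 2, library totals alone 1, leaving out ZT12 1 and leaving out the libraries with pancreas transcripts 1. At ZT12 DESeq2 gave 1 against 0, and for genotype by time on control diet 1 against 0. Rhythm calls, 14 as reported over the 4 groups, ran from 4 to 12 without 1 replicate number, which leaves fewer livers to test. The cosinor fit and JTK on the genes past the filter gave 16 each and JTK on log2 CPM 14. The cosinor fit added *Sult1d1* and *Sult5a1* in GR LKO livers on control diet and *Sult2a8* in restricted GR LKO livers, and lost *Sult2a8* in GR LKO livers on control diet. Over the day the genotype calls ran from 5 to 6 on caloric restriction and from 4 to 6 on control diet. The cause of these differences was not tested. Leaving out the libraries with pancreas transcripts was chosen after seeing the data.

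Members under 1 CPM rest on few counts, and a change there is not detectable at this depth unless it is large.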
